A study of Homo sapiens with 4 samples.

Results

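The genes described here are 57 genes of DNA replication origins and forks, listed by symbol for their known roles. They were chosen with earlier results of these data known, out of 19468 genes named in the authors' deposited table of log fold changes. All 57 were found there, through 68 RefSeq transcript records: 46 genes had 1 record and 11 had 2, and records were averaged to give 1 value per gene. They were ordered in 6 roles: origin licensing (9 genes), the replicative helicase with its activating factors and kinase (14), primase and polymerases (10), clamp, clamp loader and lagging-strand factors (12), nucleotide supply (5), and chromatin assembly with fork protection (7). The cells were MDA-LM2, a derivative of the breast cancer line MDA-MB-231 with high lung metastasis, taken 48 hours after transfection. The 2 knockdown arrays came from cells given siTARBP2-1 and siTARBP2-2, independent siRNAs against TARBP2, whose product binds double-stranded RNA and works with Dicer. The 2 control arrays (siControl-1 and siControl-2) came from cells given a control siRNA, so all 4 arrays share the line and the transfection. The array probes carry no gene names in the files used here, so no value per array can be given for a single gene and the line could not be checked against levels of its markers. The values are the authors' log fold changes of TARBP2 siRNA over control siRNA, read as log2 although the base is not stated, with 1 value per record and no replicate error. None of them was tested.

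Origins are licensed in G1, when the origin recognition complex (ORC), CDC6 and CDT1 load the MCM2 to MCM7 hexamer onto DNA and geminin (GMNN) blocks a further round. At the start of S phase the kinase CDC7 with DBF4, together with cyclin-dependent kinases, promotes the joining of CDC45 and GINS to the hexamer, which makes the active CMG helicase. Primase with polymerase alpha then starts each strand, and polymerases epsilon and delta extend the strands with the PCNA clamp, while many of these genes are transcribed at the G1/S boundary under E2F factors.

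The replication genes stood lower in the knockdown as a group. The share of them on the higher side was near that of all genes at a limit of 0.2, and above it at 0.5, where it rests on 4 genes. Of the 57 genes, 28 (49.1%) lay below -0.2 in the authors' deposited table, the mirror of the boundary of the authors' class for higher genes, against 12.1% of all named genes. Above 0.2 lay 8 replication genes (14.0%), against 13.1% of all named genes in the authors' deposited table. The other 21 lay between. The median of the replication genes was -0.19, against 0.002 over all named genes in the authors' deposited table, and 45 of 57 (78.9%) were below 0, against 49.0% of all. At a wider limit of 0.3, 20 replication genes lay on the lower side and 6 on the higher side, against 7.91% and 8.32% of all named genes in the authors' deposited table. Beyond 0.5 in size, 9 genes stood on the lower side (15.8%, against 3.18% of all named genes) and 4 on the higher side (7.02%, against 3.17%) in the authors' deposited table. The share of all named genes includes genes that the cells may not express, since the table gives no level. The members and the limits of their roles were chosen with earlier results of these data known, so these shares describe the list. The targeted gene, TARBP2, had records at -0.98 and -0.58 and a mean of -0.78 in the authors' deposited table.

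**Figure D1:**
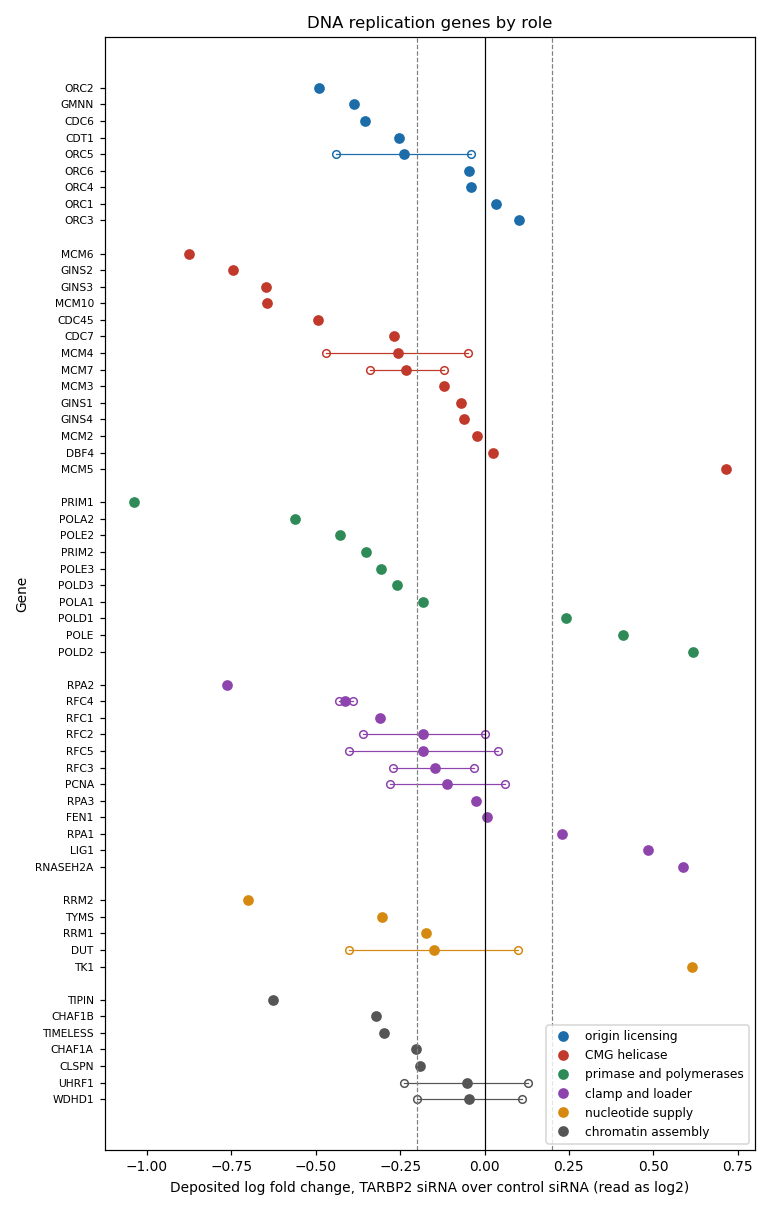
Deposited log fold change (TARBP2 siRNA over control siRNA, read as log2, horizontal axis) of each of the 57 replication genes, grouped by role and ordered by value. Filled points are gene means, open points joined by a line are the records of genes with 2 of them, dashed lines mark -0.2 and 0.2, and 28 genes lie left of the left line while 8 lie right of the right line.

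**Figure D2:**
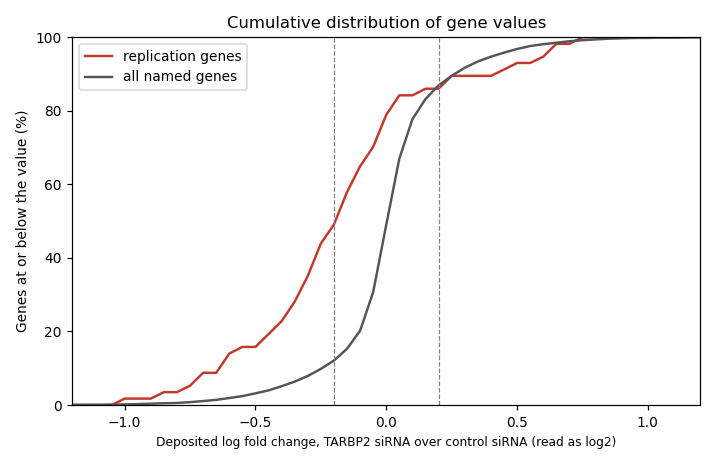
Percentage of genes (vertical axis) at or below each deposited log fold change (horizontal axis, read as log2) for the 57 replication genes and for all 19468 named genes. The replication genes run above the other curve over most of the negative side, with 49.1% of them below -0.2 against 12.1% of all, and the curves meet near 0.2.

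The arrays themselves give the limit on all of these values. The array of siTARBP2-1 stood apart: its log2 signals differed from siTARBP2-2 with an SD of 0.852 over 21075 detected probes and from the controls with SDs of 0.805 and 0.799, while siTARBP2-2 differed from the controls with SDs of 0.384 and 0.395 and the controls from each other with 0.250. Between knockdown and control, 0 of 21075 probes passed the test (0.0%; limma, smallest adjusted p = 0.805), and 815 had an unadjusted p under 0.05. Without the array of siTARBP2-1 the test called 4479 probes, and without that of siTARBP2-2 12035, with the lone array assumed to vary like the controls. How the siRNAs were weighted in the authors' deposited table is not given in the sources used here, and whether a replication gene moved under each of them was not tested. The labels do not state separate cultures for the control arrays, and the p-values may therefore measure technical spread only. Fewer cells in S phase and less RNA per cell cannot be told apart in such bulk RNA.

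The promoters of many replication genes held sites of E2F type. Since many of these genes are known to be under E2F factors, this describes the list and not the knockdown. A promoter window of 300 bases, from 250 bases before the gene's start to 50 after it, was held for 51 of the 57 genes in the RefSeq table of GRCh38.p14. The window was searched on both strands for 5 forms of the site known for E2F factors, TTTGGCGC, TTTCCCGC, TTTGGCGG, TTTCGCGC and TTTCCCGG, some of which share all but their last letter and some of which can overlap when read on opposite strands. At least 1 of them was present in 24 of 51 windows (47.1%), against 6.45% of the 14593 windows of all named genes. The form TTTCCCGC was in 12 windows of replication genes, against 2.18% of all. In the 24 windows there were 34 matches, 29 of them before the start and 21 within the last 100 bases before it. CCAAT, the word bound by NF-Y, was in 28 of 51 windows (54.9%), against 36.5% of all. The words TTTGAA and TTCGAA (CHR), known from mitotic promoters, were in 3 of 51 (5.88%), against 13.5% of all. TTCGAA reads the same on both strands.

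**Figure D3:**
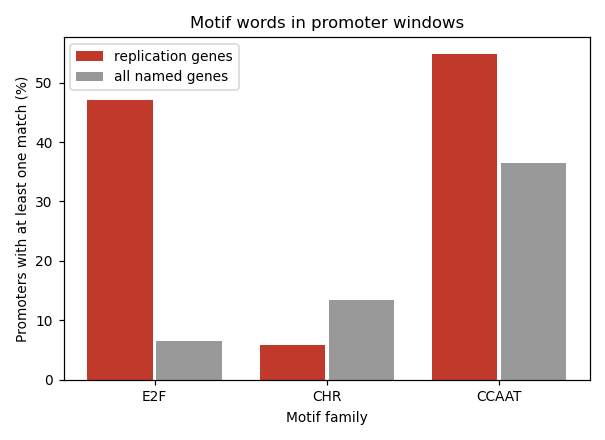
Percentage of promoter windows with at least 1 match (vertical axis) for 3 motif families (horizontal axis), for the 51 replication genes with a window and for the 14593 named genes with one. E2F words were in 47.1% of the windows of replication genes and 6.45% of all, CHR words in 5.88% and 13.5%, and CCAAT in 54.9% and 36.5%.

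Genes with and without an E2F word overlapped in value. Of the windows of genes below -0.2 in the authors' deposited table, 13 of 25 held a word, against 9 of 19 for the genes between and 2 of 7 for the genes above 0.2. The median value was -0.22 for replication genes with a word and -0.18 for those without in the authors' deposited table. The 250 bases before the start are printed here for PRIM1 and MCM6 as the lowest genes, for CDC6 as a licensing gene with a word close to its start, for POLE and LIG1 as the genes above 0.2 that hold a word, and for TK1 as a gene above 0.2 that holds none. They run 5′ to 3′ on the gene's strand, and capitals mark the E2F words.
PRIM1: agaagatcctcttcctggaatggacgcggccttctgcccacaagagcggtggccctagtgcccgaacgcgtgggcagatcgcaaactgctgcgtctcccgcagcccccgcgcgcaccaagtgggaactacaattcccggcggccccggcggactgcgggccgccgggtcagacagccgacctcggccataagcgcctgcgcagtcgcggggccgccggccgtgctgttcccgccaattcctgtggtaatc
MCM6: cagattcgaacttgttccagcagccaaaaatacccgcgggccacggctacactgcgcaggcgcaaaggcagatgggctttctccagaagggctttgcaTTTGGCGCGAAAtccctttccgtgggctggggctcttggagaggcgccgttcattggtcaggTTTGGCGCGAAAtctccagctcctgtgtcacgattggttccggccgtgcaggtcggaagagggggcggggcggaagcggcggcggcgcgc
CDC6: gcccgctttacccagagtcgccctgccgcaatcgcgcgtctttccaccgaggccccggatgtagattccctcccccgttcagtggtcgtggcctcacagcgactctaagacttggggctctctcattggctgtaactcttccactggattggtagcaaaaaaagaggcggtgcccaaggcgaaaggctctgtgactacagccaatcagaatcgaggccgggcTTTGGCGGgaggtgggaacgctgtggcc
POLE: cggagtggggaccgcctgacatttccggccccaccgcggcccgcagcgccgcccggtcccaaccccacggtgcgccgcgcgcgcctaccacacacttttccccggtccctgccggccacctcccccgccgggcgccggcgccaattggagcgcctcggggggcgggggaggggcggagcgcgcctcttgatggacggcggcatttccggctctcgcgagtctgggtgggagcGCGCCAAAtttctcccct
LIG1: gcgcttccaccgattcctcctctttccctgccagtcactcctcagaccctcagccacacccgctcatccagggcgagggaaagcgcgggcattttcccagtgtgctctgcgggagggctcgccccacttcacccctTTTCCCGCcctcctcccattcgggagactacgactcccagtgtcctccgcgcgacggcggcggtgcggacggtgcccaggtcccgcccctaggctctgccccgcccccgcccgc
TK1: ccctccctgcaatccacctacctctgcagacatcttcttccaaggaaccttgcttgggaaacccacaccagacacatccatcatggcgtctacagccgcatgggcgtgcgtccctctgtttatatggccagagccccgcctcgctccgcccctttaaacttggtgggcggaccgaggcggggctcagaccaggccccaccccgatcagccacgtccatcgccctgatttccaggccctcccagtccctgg
In GRCh38.p14 these windows are chr12:56752324-56752573 (minus strand), chr2:135876444-135876693 (minus), chr17:40287629-40287878 (plus), chr12:132687343-132687592 (minus), chr19:48170345-48170594 (minus) and chr17:78187205-78187454 (minus), each the sequence just before the annotated start of its gene. MCM6 had the most matches, 4, in 2 stretches where a word on one strand overlaps a word on the other, beginning 152 and 90 bases before the start. In CDC6 the word shown begins 28 bases before the start, and a further one lies past the start and is not printed. The word of POLE begins 18 bases and that of LIG1 114 bases before the start. A match is a description of the letters and not evidence of binding.

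Origin licensing genes stood lower or near 0, and none lay above 0.2, against 13.1% of all named genes. Of the 9 genes, 5 lay below -0.2 (55.6%, against 12.1% of all named genes) in the authors' deposited table, with a role median of -0.24. ORC2, a core subunit of the origin recognition complex, was the lowest at -0.49 in the authors' deposited table, with 644 of the 19468 genes below it. GMNN, whose product geminin inhibits CDT1, stood at -0.39, and CDC6, the ATPase that joins ORC for loading, at -0.35 in the authors' deposited table. CDT1, the partner that brings the hexamer to the origin, stood at -0.25, so the loader and its inhibitor were on the same side in the authors' deposited table. Within ORC the values were uneven. ORC5 had a mean of -0.24 in the authors' deposited table, while ORC6 (-0.04), ORC4 (-0.04), ORC1 (0.03) and ORC3 (0.10) stood near 0. The 6 subunits of this complex thus spanned 0.59, from ORC2 to ORC3, in the authors' deposited table.

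The helicase genes held the widest contrast within one complex. Of the 14 genes of this role, 8 were under -0.2 (57.1%) and only MCM5 exceeded 0.2 (7.14%) in the authors' deposited table, with a median of -0.24. All named genes had shares of 12.1% and 13.1%. MCM6, a subunit of the hexamer, stood at -0.87, and 85 genes were lower in the authors' deposited table. MCM5, another subunit of the same hexamer, stood at 0.71, and 195 genes were higher in the authors' deposited table. The range over the 6 hexamer genes was 1.59 in the authors' deposited table, with MCM4 at -0.26, MCM7 at -0.23, MCM3 at -0.12 and MCM2 at -0.02 between these ends. The window of MCM6 held the 4 overlapping E2F words printed above.

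The factors that turn the loaded hexamer into a helicase stood lower or near 0. GINS2 stood at -0.74 and GINS3 at -0.65 in the authors' deposited table, whereas GINS1 (-0.07) and GINS4 (-0.06), the other GINS subunits, lay near 0. CDC45, the further partner of the hexamer, stood at -0.49, and MCM10, which acts in helicase activation and is not part of the hexamer, at -0.64 in the authors' deposited table. The kinase gene CDC7 stood at -0.27, but DBF4, the gene of its activating subunit, at 0.02 in the authors' deposited table. Except for MCM5 and DBF4, the 14 genes of this role were below 0 in the authors' deposited table.

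Primase and polymerase alpha genes stood below 0, and the genes of polymerases delta and epsilon were split within each complex. Among the 10 genes, the authors' deposited table has 6 under -0.2 (60.0%), 3 over 0.2 (30.0%) and POLA1 between. The matching shares of all named genes were 12.1% and 13.1%. PRIM1, the catalytic subunit of primase, had the lowest value of the 57 genes, -1.04 in the authors' deposited table, with 26 genes below it. Its partner PRIM2 stood at -0.35, POLA2, the accessory subunit of polymerase alpha, at -0.56, and POLA1, its catalytic subunit, at -0.18 in the authors' deposited table. Polymerase delta had the catalytic subunit POLD1 at 0.24 and the accessory subunit POLD2 at 0.62 in the authors' deposited table, and POLD3, another accessory subunit, at -0.26. In polymerase epsilon the catalytic subunit POLE stood at 0.41, while POLE2 (-0.43) and POLE3 (-0.31), both accessory subunits, stood below -0.2 in the authors' deposited table. The subunits of delta thus spanned 0.87 and those of epsilon 0.84 in the authors' deposited table. Of the E2F words shown above, PRIM1 held none and POLE held 1.

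Clamp, loader and lagging-strand genes were the least one-sided role. Among the 12 genes, the authors' deposited table has 3 under -0.2, 3 over 0.2 and 6 between, with a median of -0.13. The clamp loader RFC, which opens PCNA around DNA, had means below 0 in each of its 5 subunit genes, from -0.41 for RFC4 to -0.15 for RFC3 in the authors' deposited table. A record of RFC5 stood at 0.04. RFC1, the large subunit, stood at -0.31, and PCNA at -0.11 in the authors' deposited table. The single-strand binding complex RPA was split, with RPA2 at -0.76, RPA3 at -0.02 and RPA1, the large DNA-binding subunit, at 0.23 in the authors' deposited table. Among the genes that finish Okazaki fragments, LIG1, the ligase that seals nicks, stood at 0.48, and RNASEH2A, the catalytic subunit of an RNase that removes RNA from DNA, at 0.59 in the authors' deposited table. FEN1, the flap nuclease, stood at 0.01 in the authors' deposited table.

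Genes of nucleotide supply and chromatin assembly added further contrasts. RRM2, the regulated subunit of ribonucleotide reductase, stood at -0.70 and its partner RRM1 at -0.17 in the authors' deposited table. Thymidylate synthase, TYMS, stood at -0.30 and DUT, which removes dUTP, at -0.15, while TK1, the salvage thymidine kinase of S phase, stood at 0.62 in the authors' deposited table. All 7 chromatin assembly and fork protection genes had means below 0 in the authors' deposited table, against 49.0% of all named genes. Below -0.2 lay 4 of them (57.1%, against 12.1%). TIPIN stood at -0.63 and its partner TIMELESS at -0.30, the 2 genes of the complex that travels with the fork, in the authors' deposited table. Both CAF-1 subunit genes, CHAF1B (-0.32) and CHAF1A (-0.20), lay below the boundary in the authors' deposited table, CHAF1A by little. CLSPN, the checkpoint mediator claspin, lay just inside it at -0.19, and the hemimethylated DNA reader UHRF1 and the fork scaffold WDHD1 stood at -0.05 each in the authors' deposited table. The last 2 values are means of records of opposite sign, -0.24 and 0.13 for UHRF1 and -0.20 and 0.11 for WDHD1.

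Records of the same gene differed. In each of the 11 replication genes with 2 records, the lower record was below -0.2 in the authors' deposited table, against 19.9% of the 2131 named genes with 2 records. None of the 11 had a record above 0.2, against 21.0% of those genes in the authors' deposited table. The lower record ranged from -0.47 for MCM4 to -0.20 for WDHD1, and the higher record from -0.39 for RFC4 to 0.13 for UHRF1 in the authors' deposited table. Only RFC4 had both records below -0.2 (9.09%, against 4.36% of the genes with 2 records), and 5 of the 11 genes (45.5%) had records of opposite sign in the authors' deposited table, near the 41.9% of the genes with 2 records. The gap between records had a median of 0.36, against 0.12 over the genes with 2 records in the authors' deposited table. PCNA stood at 0.06 and -0.28, RFC5 at -0.40 and 0.04, RFC2 at -0.36 and 0.00, and DUT at -0.40 and 0.10 in the authors' deposited table. Taking the record farthest from 0, 35 of the 57 genes lay below -0.2, and taking the nearest, 25 did. Which isoforms the cells express was not measured at the level of named records. RefSeq lists named pseudogenes for 14 of the 57 genes, among them DUT, PCNA, RPA2, RRM2 and POLD2, and their probes may be shared.

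**Figure D4:**
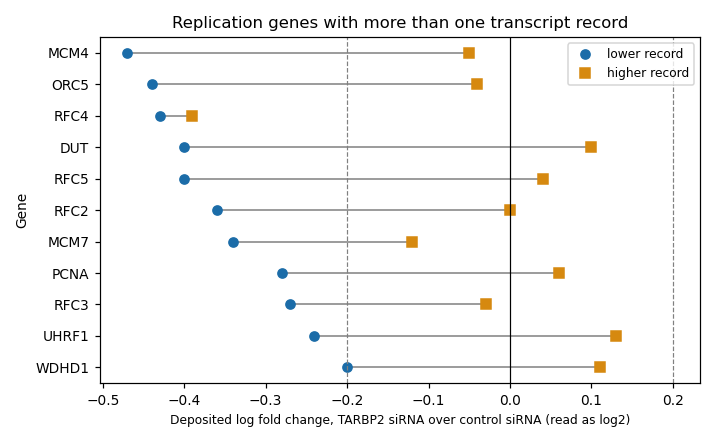
Deposited log fold change (horizontal axis, read as log2) of the lower (circle) and higher (square) transcript record of the 11 replication genes with 2 records, with dashed lines at -0.2 and 0.2. Every lower record lies below -0.2, from -0.47 for MCM4 to -0.20 for WDHD1, and no higher record reaches 0.2.

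No single feature of position or composition was common to the 8 genes above 0.2. They were MCM5, POLD2, TK1, RNASEH2A, LIG1, POLE, POLD1 and RPA1, each with 1 record in the authors' class for higher genes. RNASEH2A, LIG1 and POLD1 are 3 of the 5 replication genes on chromosome 19, where 20.2% of the 1359 genes named in the authors' deposited table exceeded 0.2 and 4.93% were under -0.2. The other replication genes on chromosome 19 were CHAF1A, just below -0.2, and UHRF1 (-0.05). TK1 and RPA1 are on chromosome 17, where 16.9% of all named genes exceeded 0.2 and 10.4% were under -0.2. CDC6 (-0.35) is on chromosome 17 too. By contrast, of the 4 replication genes on chromosome 2, MCM6, RRM2 and ORC2 lay below -0.2, and 15.1% of all named genes there did in the authors' deposited table. On chromosome 16, CDT1, GINS2 and GINS3, 3 of 4 replication genes, were under -0.2 and none exceeded 0.2. Of all genes there, 8.83% were under -0.2 and 20.7% exceeded 0.2 in the authors' deposited table. On chromosome 11, 2 of 4 replication genes were under -0.2 and none exceeded 0.2, against 9.25% and 16.4% of all genes there. Since 49.1% of the 57 genes were under -0.2, 4 genes do not set a chromosome apart. MCM5 is on chromosome 22, where 16.3% of all named genes exceeded 0.2 and 5.5% were under -0.2, and so is CDC45 (-0.49). POLD2 is on chromosome 7, with shares of 12.3% and 12.8%, and POLE on chromosome 12, with 12.9% and 14.3%. Each of these 2 chromosomes also held 2 replication genes below -0.2. The promoter windows of the genes above 0.2 had a median of 71.0% G and C (7 windows, with TK1 at 64.0%), against 65.0% for those between (19) and 63.3% for those below -0.2 (25). Across the 51 genes with a window, the value and this percentage had a Spearman correlation of 0.18, against 0.09 across all 14593, and the value and the log10 genomic span one of -0.02, against -0.10. Genes are not independent points, and these are weak relations.

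Genes that act beside the 57 also lay below -0.2 more often than above 0.2. Of 75 other genes of the pathway found in the authors' deposited table, in 6 lists, 26 (34.7%) lay below -0.2 and 13 (17.3%) above 0.2. The shares of all named genes were 12.1% and 13.1%. The median of the 75 genes was -0.06. The origin firing and fork factors had 9 of 19 genes under -0.2 (47.4%) and 5 that exceeded 0.2 (26.3%) in the authors' deposited table. Among these TOP2A (-0.59), a topoisomerase, the ribonuclease subunit gene RNASEH2B (-0.53) and the MCM-binding protein gene MCMBP (-0.52) were lowest, and the helicase gene RECQL4 (0.65) and POLD4 (0.61), the smallest subunit of polymerase delta, were highest in the authors' deposited table. RNASEH2A and RNASEH2B therefore stood on opposite sides, and POLD4 stood on the side of POLD1 and POLD2. Of 9 other chromatin assembly genes, 5 lay below -0.2 (55.6%) and 3 above 0.2 (33.3%). The histone chaperone gene ASF1A stood at -0.67, its paralogue ASF1B at 0.60 and the FACT subunit gene SSRP1 at 0.58 in the authors' deposited table.

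The regulators upstream of S phase had a median close to 0, with a larger share below -0.2 than all named genes. Under -0.2 were 7 of 25 genes and over 0.2 were 4 in the authors' deposited table, with a median of -0.04. The lowest were CDKN1B, the cyclin-dependent kinase inhibitor p27, at -0.61 and E2F4, a repressor-type E2F, at -0.56 in the authors' deposited table. E2F1, an activator of the replication genes, stood at -0.17, E2F2 at -0.39 and E2F3 at -0.45, while CCNE2 stood at -0.41 and CCNE1 at 0.15 in the authors' deposited table. The 4 regulators above 0.2 were the cyclin A gene CCNA2 (0.50), E2F6 (0.49), E2F8 (0.36) and CDKN1A (0.26), the inhibitor p21, in the authors' deposited table. The value of CDKN1A is the mean of records at 0.52 and 0.01. FBXO5, an inhibitor of the anaphase-promoting complex listed with licensing turnover, stood at -0.72, and 2 of the 5 genes of that list (40.0%) lay below -0.2 in the authors' deposited table. Among 10 other nucleotide enzymes 2 lay below -0.2 (20.0%) and none above 0.2, with the GMP synthase gene GMPS at -0.54 in the authors' deposited table. Of 7 checkpoint genes, 1 (CHEK1, -0.29) lay below -0.2 and 1 (ATRIP, 0.27) above 0.2 in the authors' deposited table. Each is 14.3% of that list, near the shares of all named genes. Of 17 markers of cell types, KRT8 (1.05), KRT19 (0.85), CD14 (0.59) and ACTA2 (0.42) lay above 0.2 and AXL (-0.52) below -0.2 in the authors' deposited table, while the leukocyte marker PTPRC stood at 0.01 and the epithelial marker EPCAM at 0.01. The part of such markers in the values of the replication genes was not tested.

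**Figure D5:**
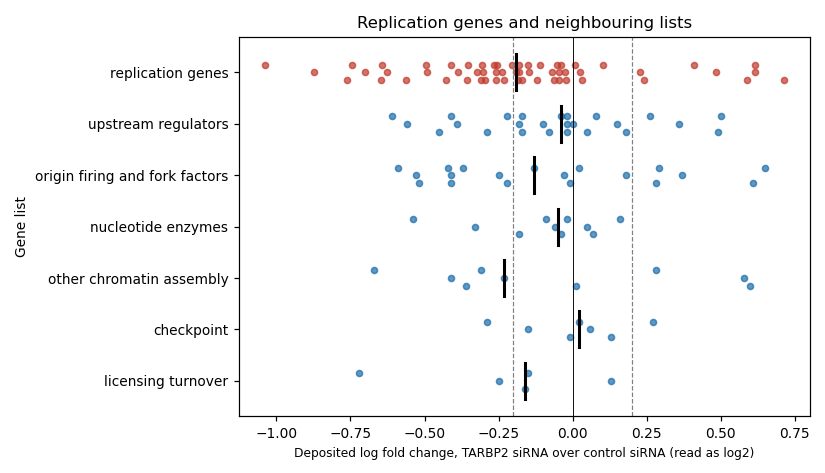
Deposited log fold change (horizontal axis, read as log2) of each gene in the replication list and in 6 neighbouring lists (vertical axis), with a bar at each median and dashed lines at -0.2 and 0.2. The median is -0.19 for the 57 replication genes, -0.23 for other chromatin assembly genes, -0.13 for other origin firing and fork factors, -0.04 for upstream regulators and 0.02 for checkpoint genes.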

How the data were processed

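Total RNA of 4 samples was labelled with biotin and hybridised to Illumina expression BeadChips, per the labels' protocols, in 2 groups of 2 arrays. The authors' deposited table of log2 fold changes (the base is an assumption, the file header says only log) holds 1 value for each of 39745 accessions. Without versions, 22411 accessions (56.4%) matched the RefSeq gene table of GRCh38.p14. The deposited probe intensity values were not normalized, and the detection score beside each, a fraction in the deposited file, was used as 1 minus the detection p. A second deposited table of intensity values shares its quantiles between arrays (median 85.6 on each). The submitters' processing notes name lumi.

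Intensities were normalized with neqc (offset 16) in limma 3.58.1 (R 4.3.3), and probes whose detection p was under 0.05 on 2 or more arrays were kept. Groups were compared with lmFit and eBayes with a trend, two-sided, with Benjamini-Hochberg adjustment at 0.05. On simulated data of 21075 probes with the spread of the controls, 99 of 100 probes changed by 1 (log2) and all 100 changed by 2 were recovered. There were 4 false calls among the unchanged probes. The control arrays differed from each other with an SD of 0.250, but the 2 knockdown arrays with an SD of 0.852. The recovery therefore does not show what the test could find in these data. With 2 arrays against 2, an exact permutation test cannot go under p = 0.333. Named genes are described without a test, since no table used here pairs probes with genes. The planned test of the genes' own probes was therefore not run. The genes, roles, neighbouring lists, markers and motifs were chosen with earlier results of these data known. All 57 genes could be named, and neighbouring genes by rule where beyond 0.5 in size. E2F1, E2F2, E2F3, CCNE1, CCNE2, CCNA2, E2F6, E2F8, CDKN1A, CHEK1 and ATRIP were named after their values were seen, as were the promoters printed, the features of the genes above 0.2, and the genes with 2 records. The precision of the values is limited by the number of arrays. Alternatives covered the choice of record, the threshold, normalization, filter, variance model, replicate block and each array left out.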

Additional observations from a re-analysis of the deposited data

How the results depend on the processing

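The count of replication genes below -0.2 was 28 with the mean over records. The median over records and curated records only gave 28 too, but could give nothing else. No replication gene had more than 2 records, so the median equals the mean, and all of their records were curated. The count was 35 with the record farthest from 0, 25 with the nearest, and 36 of 68 with each record counted once. The count above 0.2 was 8 under each of these choices, which could not change it. Those 8 genes had 1 record each, and no replication gene with 2 records had one above 0.2. At a threshold of 0.3 there were 20 below and 6 above (7.91% and 8.32% of all named genes), and at 0.5 there were 9 below and 4 above. The median of -0.19 became -0.27 with the farthest record, -0.12 with the nearest and -0.22 over single records. In the array test, 0 probes passed with the authors' normalized intensities, with scaling to a common median, without the filter on dim probes, without trend and with the robust option, with 755 to 1740 at an unadjusted p under 0.05 (limma). With 1 array left out, between 0 and 12035 probes passed, 0 without either control; where a knockdown array is left out, the residual spread comes from the control arrays alone. With the replicate number as a block, 0 probes passed and 1019 had an unadjusted p under 0.05 (limma). The deviations of same-numbered samples had a correlation of -0.0418. With 2 arrays per group the crossed pairing gives the same size with the other sign, 0.0418. Whether the numbers pair the samples cannot be told from this value. The alternatives for probes of single genes were not run, since no table used here pairs probes with genes. The number of arrays and the unstated base limit every value.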
